A study of Rattus norvegicus with 8 samples.

Results

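Methylation at CA sites, cytosines that stand before an adenine and outside CpG, was measured region by region along chromosomes 1 to 20 of the rat brain. A cytosine was used if it was in CHH context (H is A, C or T), was followed by A and was listed in all 8 libraries. CAG, which falls in CHG context, is therefore left out. Calls were summed in fixed windows of 100 kb, and windows with 20 or more such positions were kept, which gave 14694 of the 21808 windows that hold any. They contain 1081278 of 1154795 positions (93.6%), with a median of 57 positions per window and quartiles of 34 and 97. The choice used position, context and coverage only, not methylation.

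The libraries came from male Sprague Dawley rats aged 2 months at the start, which were fed the omega-3 fatty acid DHA (docosahexaenoic acid) over 6 weeks. There were 4 hippocampus and 4 hypothalamus libraries, all of them from DHA-fed animals, so tissue was the only contrast. The labels' treatment field, which is shared by all samples, also mentions fructose, but each library is labelled with DHA alone. Reduced representation bisulfite sequencing (RRBS) reads short fragments cut by MspI at sites that contain a CpG, so each window was sampled at a few fragments and not along its whole length. The tissues are bulk dissections, in which a change in the share of methylated cells and a change in the level per cell cannot be told apart.

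In mammals, methylation outside CpG is sparse in most tissues and accumulates in neurons after birth. The methyltransferase DNMT3A writes it, mostly at CA and above all at CAC. It varies over long stretches of chromosome, tends to be low in CpG islands and over genes active in the cell type, and differs between neuron types. Because its level is low, unmethylated cytosines that escape bisulfite conversion make up a larger part of it than of CG methylation.

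The uncorrected CA level over all member windows, that is methylated calls over all calls, was 2.14%, 1.79%, 4.58% and 4.87% in hippocampus 1 to 4. In hypothalamus 1 to 4 it was 3.15%, 1.81%, 2.30% and 3.20%. Counting error was small at this level, as windows held 25771767 to 83112340 calls per library and the largest 95% Wilson half-width was 0.00579 points.

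CHH cytosines followed by C, which carry little methylation in brain, gave each library's correction. Their level in hippocampus libraries 1 to 4 was 0.370%, 0.332%, 1.76% and 1.85%, and in the hypothalamus libraries 1.0%, 0.310%, 0.412% and 1.01%. With it subtracted, the CA level came to 1.77, 1.46, 2.82 and 3.02 percentage points in hippocampus, against 2.14, 1.50, 1.89 and 2.19 points in hypothalamus. Hippocampus 3 and 4 thus lay above the other 6 libraries before and after the correction.

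Mitochondrial DNA, held here to be essentially unmethylated, gave a second measure of unconverted calls in the CA context itself, which was added after the data were seen. At its 23 shared CA positions the hippocampus libraries had 0.388%, 0.285%, 3.16% and 3.35%, against 1.35%, 0.225%, 0.338% and 1.64% in hypothalamus, with 95% Wilson half-widths of 0.0222 to 0.0846 points. It exceeded the CC level of the same library by 1.40 and 1.50 points in hippocampus 3 and 4 and by 0.347 and 0.631 points in hypothalamus 1 and 4. Mitochondrial minus CC level was 0.0182 and -0.0464 points in hippocampus 1 and 2, and -0.0846 and -0.0740 points in hypothalamus 2 and 3. In those last 4 libraries alone, therefore, the 2 corrections differed by less than 0.1 points.

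With the mitochondrial CA level subtracted in place of the CC level, the CA level was 1.75, 1.50, 1.42 and 1.53 points in hippocampus and 1.80, 1.59, 1.97 and 1.56 points in hypothalamus. Hippocampus 3 and 4 were no longer above the rest. Levels are called CC-corrected or mitochondria-corrected below. The correction adds or removes the same amount in every window of a library, so it moves levels and tissue differences but not the ranking of windows within a library, the spread over windows or a correlation between libraries.

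**Figure D1:**
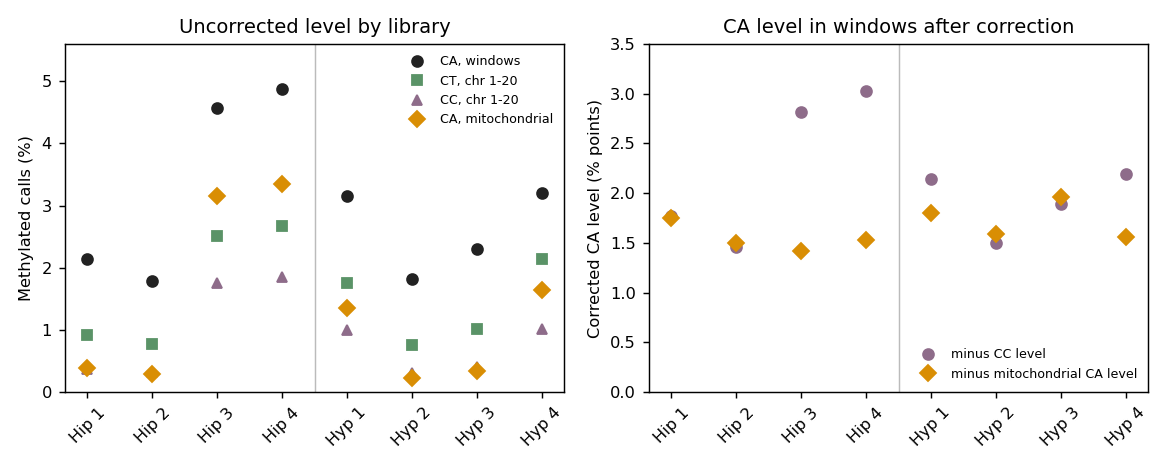
Left, methylated calls in percent at CA sites of the member windows, at CT and CC sites of chromosomes 1 to 20 and at mitochondrial CA sites, 1 point per library (Hip, hippocampus; Hyp, hypothalamus). Right, the CA level after subtraction of the CC or of the mitochondrial CA level; hippocampus 3 and 4 lie at 2.82 and 3.02 points with the first and at 1.42 and 1.53 points with the second.

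CA methylation varied several-fold between regions. The mean CC-corrected level over the 8 libraries had a median of 1.96 points over windows, a 10th percentile of 0.813 and a 90th percentile of 3.53 points. With mitochondrial correction these were 1.50, 0.352 and 3.07 points. In 1% of windows the CC-corrected mean was above 5.26 points, and the highest window reached 9.45 points. The SD over windows was 1.02 to 1.17 points in the hippocampus libraries and 1.09 to 1.44 points in the hypothalamus libraries, whereas the median counting error of a window (1 standard error) was 0.197 to 0.378 points. The variation between windows was thus larger than counting error in all 8 libraries. Counting error does not include which positions of a window RRBS sampled, so part of this variation can lie between positions.

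Chromosomes differed little. Their median CC-corrected window level ran from 1.79 points on chromosome 12 to 2.20 points on chromosome 19. Windows with 20 to 24 positions, just inside the limit, had a median of 1.63 points (n = 1442), and those with 15 to 19 positions, just outside it, had 1.53 points (n = 1721).

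Neighbouring windows were alike over short distances only. Across windows the Spearman correlation of the mean level with that of the next window was 0.306 (11231 pairs), with the window at 0.5 Mb it was 0.111 (10353 pairs) and at 5 Mb it was 0.0154 (8317 pairs). In hippocampus and hypothalamus taken separately the values for the next window were 0.297 and 0.305. Pairs of windows share libraries, and these correlations are descriptions.

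Among the 3526 windows with 100 or more positions, the highest mean level was on chromosome 10 at 54600001 to 54700000 (100 positions, coordinates of build rn5 per the submitters' processing notes). Its CC-corrected level was 6.79, 6.56, 6.78 and 7.29 points in the hippocampus libraries, against 8.56, 7.14, 7.86 and 8.38 points in those of hypothalamus, from 2140 to 7891 calls per library. All 8 libraries lay above the 99th percentile of window means. Its CG level was 86.1%, and its strongest single position held 5.51% of its methylated calls. Of its 100 positions, 12 had a mean level of 20% or more, a level reached by 1.40% of all member positions.

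The next highest windows started at 76200001 on chromosome 2, 65800001 and 51600001 on chromosome 8 and 169100001 on chromosome 3, with mean levels of 5.84, 5.45, 5.39 and 5.24 points. Their CG levels were 72.1% to 83.4%, and they held 8, 11, 6 and 8 positions at a mean level of 20% or more, among 108, 135, 118 and 113. In the window at 51600001 on chromosome 8, 1 position held 19.7% of the methylated calls, and in the one on chromosome 3 the strongest held 12.4%.

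At the other end, the window at 55200001 to 55300000 on chromosome 14 (120 positions) had CC-corrected levels of -0.00931, -0.00394, 1.14 and 1.50 points in hippocampus 1 to 4. In hypothalamus 1 to 4 it had 0.0579, -0.0101, -0.142 and 0.0568 points. Only hippocampus 3 and 4 stood clear of 0. Their mitochondrial CA level exceeded their CC level by 1.40 and 1.50 points. Whether unconverted calls account for these values was not tested. With mitochondrial correction these 2 libraries had -0.257 and 0.00396 points, and hypothalamus 4 had -0.574.

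The windows at 83900001 on chromosome 10 (301 positions) and 100900001 on chromosome 13 (103 positions) were also low. There hippocampus 3 and 4 had 1.10 to 1.53 CC-corrected points and the other 6 libraries -0.134 to 0.134. With mitochondrial correction hippocampus 3 and 4 had -0.396 to 0.125 points in these windows. These 3 windows had CG levels of 2.76% to 4.52%. Over all 179 member windows with a mean CG level under 5%, the uncorrected CA level was 0.612%, 0.440%, 3.33% and 3.51% in the hippocampus libraries and 1.34%, 0.369%, 0.579% and 1.28% in those of hypothalamus. It was above the mitochondrial level in 6 libraries and below it in hypothalamus 1 and 4, where the mitochondrial level was 1.35% and 1.64%.

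The pattern of high and low regions repeated from library to library. Pearson's r of window levels was 0.841 to 0.910 within hippocampus (6 pairs), 0.800 to 0.864 within hypothalamus (6 pairs) and 0.771 to 0.869 between the tissues (16 pairs), across 14694 windows. Libraries of one tissue were on average more alike, with a mean r within tissues 0.0389 above that between tissues. This was the largest of the 35 possible splits (exact two-sided permutation p = 0.0286, the lowest possible here). Adjusted over 5 tissue comparisons by Benjamini-Hochberg, p was 0.143 and did not pass. Over 5 comparisons the lowest p cannot pass unless several reach it together. Without hippocampus 3 and 4 the difference in mean r was 0.0169. The shallowest library, hypothalamus 3, had a median of 1399 calls per window against 4483 in the deepest, and depth enters each r.

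The labels name no animals. At 338 CG positions whose levels fell in low, middle and high classes, as a genotype would, the classes were the same at 98.8% of positions between the replicate 1 libraries of both tissues. Between the replicate 4 libraries it was 97.9%. The other 14 pairs of a hippocampus and a hypothalamus library had the same class at 22.5% to 39.6%. Tests between tissues treat the 8 libraries as independent, although replicates 1 and 4 match across tissues in this way, and where libraries are not from separate animals a p-value measures only the spread between libraries.

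The other CHH contexts were set beside CA in the 13614 windows with 20 or more shared positions of each kind. Mean Pearson's r between tissues was 0.825 for CA, 0.671 for CT and 0.413 for CC, and CA was above CT and CT above CC in 28 of 28 pairs of libraries. By ranks, which a few extreme windows do not move, the mean Spearman correlation between tissues was 0.833 for CA, 0.638 for CT and 0.0903 for CC. By ranks, then, the CC level had little regional order in common between libraries. The difference between contexts was not tested.

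**Figure D2:**
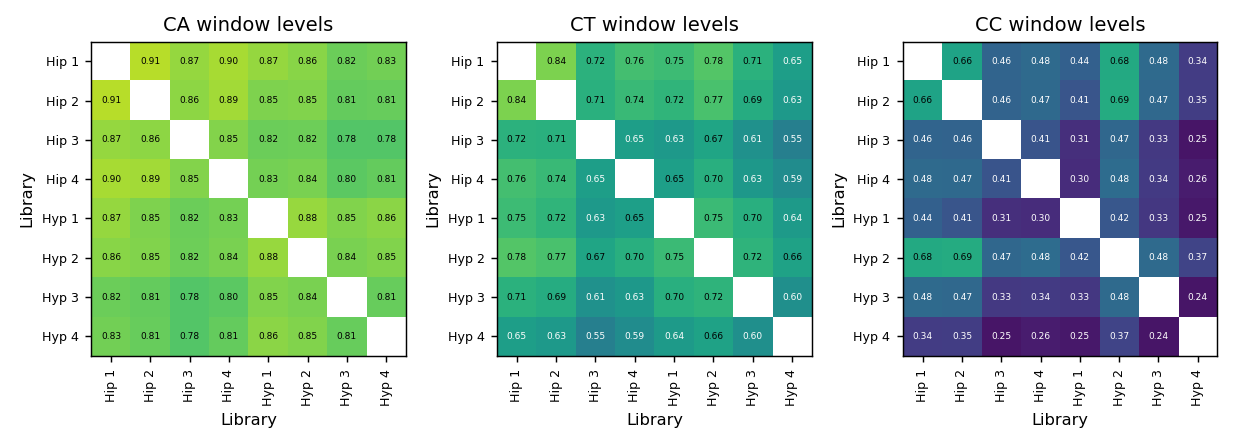
Pearson's r of window levels for each pair of the 8 libraries (Hip, hippocampus; Hyp, hypothalamus) across 13614 windows, for CA, CT and CC sites; yellow is high and dark blue low. Between the tissues r averages 0.825 for CA, 0.671 for CT and 0.413 for CC.

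Strands of a window were less alike than libraries. Libraries share the same positions, whereas the 2 strands of a window share the region but no position and each hold fewer calls. In the 8707 windows with 20 or more positions on each strand, r between the strands within a library was 0.399 to 0.474, and 0.505 for the mean of the 8 libraries. The strands had nearly the same median uncorrected level, 2.89% and 2.87%.

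Levels differed by the base after the CA. It was read from the files: where the cytosine 2 bases downstream on the same strand was listed the site was CAC, and where it was not, although a cytosine 3 to 12 bases downstream was, the site was CAA or CAT. The member windows held 404753 CAC sites, 579213 CAA or CAT sites and 97312 that could not be read.

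At CAC, hippocampus libraries 1 to 4 had uncorrected levels of 3.57%, 3.03%, 5.86% and 6.27%, and the hypothalamus libraries 4.78%, 3.07%, 3.91% and 4.87%. At CAA or CAT the hippocampus libraries had 1.31%, 1.07%, 3.81% and 4.05%, and those of hypothalamus 2.21%, 1.07%, 1.39% and 2.23%. CAC was higher in all 8 libraries, by 1.96 to 2.64 points and by 2.28 points on average (two-sided exact sign-flip permutation p = 0.00781, the smallest that 8 libraries allow). This test too treats the 8 libraries as independent, although replicates 1 and 4 match across tissues. With 1 value per replicate number the sign-flip p was 0.125, the smallest that 4 values allow.

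A subtraction common to both kinds of site cancels in this difference. In relative terms it does not: with mitochondrial correction CAC was 3.35 to 5.52 times the level of CAA or CAT, and with CC correction 2.00 to 3.66 times. The 5.52 was hypothalamus 4 alone, and the next highest ratio was 4.17, in hippocampus 4. In hypothalamus 4 the mitochondria-corrected CAA or CAT level was only 0.584 points, and the 10th percentile of its mitochondria-corrected window levels was -0.146 points. Its ratio therefore rests on a small remainder. The difference between CAC and the other sites was 2.12 ± 0.138 points (SD, n = 4) in hippocampus against 2.43 ± 0.297 points (n = 4) in hypothalamus. That tissue difference of 0.312 points, a comparison added after the data were seen, did not pass (exact permutation p = 0.114, or 0.229 adjusted by Benjamini-Hochberg over 6 comparisons).

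**Figure D3:**
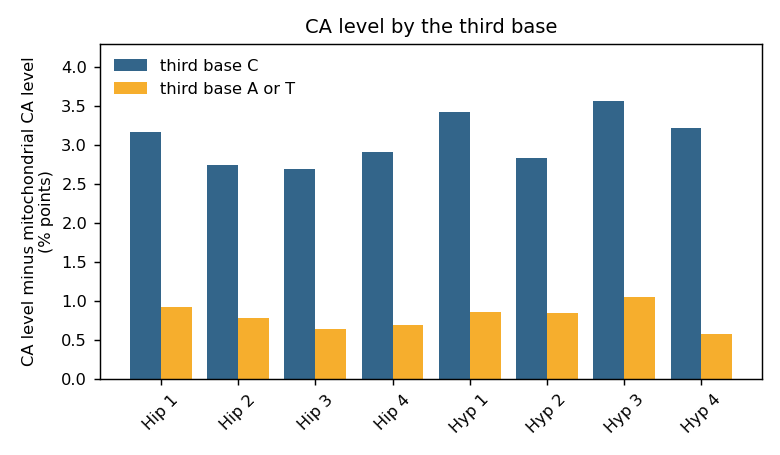
CA level of the member windows minus the library's mitochondrial CA level, in percentage points, for CAC sites and for CAA or CAT sites; each pair of bars is 1 library (Hip, hippocampus; Hyp, hypothalamus). The CAC bars lie between 2.70 and 3.57 points and the others between 0.584 and 1.05 points.

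The difference by the next base held in most regions. In 7585 windows with 20 or more sites of each kind, the mean CAC level exceeded the mean CAA or CAT level in 7438 (98.1%), and did so in every library in 6556 (86.4%). Across these windows the CAC level had a 10th to 90th percentile range of 1.36 to 6.26 CC-corrected points and the CAA or CAT level one of 0.561 to 2.10 points. The 2 levels had a Spearman correlation of 0.686, although they share no site. The share of CAC among readable sites had a median of 40.3% and ran from 28.9% to 50.8% (10th and 90th percentiles), and its Spearman correlation with the window level was 0.00964 (n = 14694). Taken alone, the share of CAC thus did not order the regional level. In 5 equal groups of windows ordered by CG level, the median share fell from 42.9% in the lowest to 38.7% in the highest. CG level was not held fixed in this correlation, and the part of the CAC share at a given CG level was not tested.

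Single strongly methylated sites were part of the picture. Positions with a mean level of 20% or more made up 1.40% of positions and occurred in 6995 windows (47.6%). Their share of methylated calls was taken over all shared CA positions of chromosomes 1 to 20, in member windows or not. Of these methylated CA calls, without correction, positions at 20% or more held 18.7%, 20.6%, 8.19% and 8.22% in the hippocampus libraries. In those of hypothalamus they held 13.1%, 19.1%, 17.9% and 13.9%. Hippocampus 3 and 4, with the lowest shares, also had the highest mitochondrial CA levels. Unconverted calls enter the total, and their part in these shares was not tested. In the median window the strongest position held 10.4% of methylated calls. Whether such a site is a CpG in these animals was not tested.

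CA level was higher in windows of higher CG level, but not over the whole range. CG level was taken from windows with 10 or more shared CG positions (13719 windows). The Spearman correlation of CA with CG level across windows was 0.381, 0.368, 0.345 and 0.360 for hippocampus libraries 1 to 4, and for those of hypothalamus 0.388, 0.399, 0.371 and 0.368. Both levels come from the same reads. Over 5409 windows with a mean CG level under 50% the correlation of the means was 0.478, and over the 8310 windows above it -0.0455.

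In 5 groups of equal size ordered by CG level, the median CC-corrected CA level was 1.09, 1.76, 2.28, 2.52 and 2.18 points, where group 1 ends at 29.1% CG and group 5 starts at 83.0%. It was higher in each group up to group 4 and lower in group 5. In each of the 8 libraries group 4 lay above group 1, by 1.09 to 1.78 points, and group 5 minus group 4 was -0.484 to -0.275 points. Even so, windows of a group differed widely: in group 5, the 10th and 90th percentiles were 0.956 and 3.92 points.

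CpG density moved with both measures. The number of shared CG positions per CA position had a Spearman correlation of -0.428 with the CA level and of -0.666 with the CG level, and its part in the link was not tested. In 13175 windows with all contexts, the correlation with CG level was 0.369 to 0.424 for CA, 0.298 to 0.351 for CT and 0.0582 to 0.218 for CC over the 8 libraries. The CA to CG correlation was 0.364 ± 0.0147 (SD, n = 4) in hippocampus and 0.381 ± 0.0147 (n = 4) in hypothalamus. Their difference, 0.0180, did not pass (exact permutation p = 0.171, or 0.286 adjusted by Benjamini-Hochberg). The difference was 0.000525 in 50 kb windows and 0.0400 in 500 kb windows. In the latter the exact permutation p was 0.0286, the lowest possible, or 0.0714 adjusted by Benjamini-Hochberg.

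**Figure D4:**
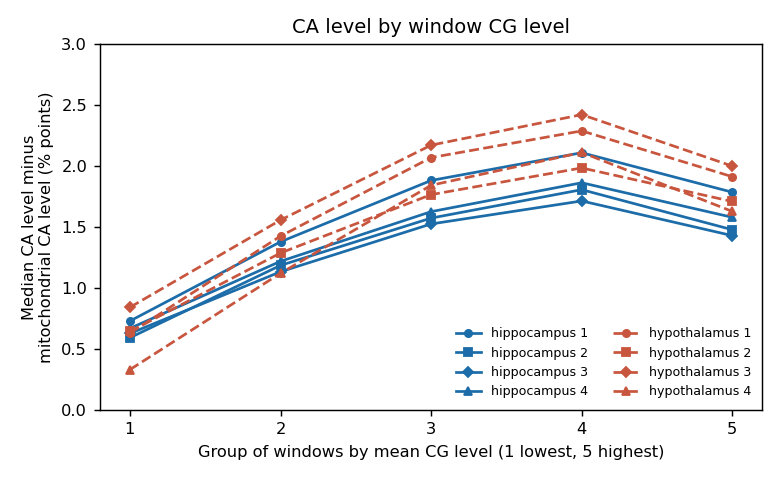
Median CA level minus mitochondrial CA level (percentage points) in 5 equal groups of windows ordered by mean CG level, 1 line per library; solid blue lines are hippocampus and dashed red lines hypothalamus. All 8 lines are higher in group 4 than in group 1 and lower in group 5 than in group 4.

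The tissues were compared first by the level of each library. The CC-corrected level was 2.27 ± 0.771 points (SD, n = 4) in hippocampus and 1.93 ± 0.314 points (n = 4) in hypothalamus. Hypothalamus minus hippocampus, -0.334 points, was smaller in size than the SD in hippocampus (exact permutation p = 0.457, or 0.486 adjusted by Benjamini-Hochberg over 5 comparisons). With mitochondrial correction the levels were 1.55 ± 0.141 and 1.73 ± 0.191 points, and the sign turned: the difference was 0.178 points (exact permutation p = 0.171). Within replicates 1 and 4 only, whose libraries match across tissues, it was 0.0395 points. Without hippocampus 3 and 4 the CC-corrected difference was 0.320 points (exact permutation p = 0.267, where 2 against 4 libraries cannot go below 0.0667). The direction of the average difference thus depended on the correction and on those 2 libraries, and it did not pass in any of these forms.

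The median window behaved in the same way, with 2.10 ± 0.789 and 1.78 ± 0.302 CC-corrected points (SD, n = 4 each; exact permutation p = 0.486 before and after adjustment). The spread over windows does not depend on the correction. The 90th minus the 10th percentile was 2.87, 2.50, 2.43 and 2.60 points in hippocampus and 3.27, 2.68, 3.24 and 3.58 points in hypothalamus. Hypothalamus was wider on average by 0.594 points, but hypothalamus 2 lay below hippocampus 1, and the difference did not pass (exact permutation p = 0.0571, adjusted 0.143). Between the matching libraries of replicates 1 and 4 hypothalamus was wider in both pairs, by 0.694 points on average. The median counting error of a window was 0.209, 0.197, 0.331 and 0.316 points in the hippocampus libraries, against 0.282, 0.198, 0.366 and 0.378 points in those of hypothalamus. With every position thinned to 10 calls in each library, the difference in spread was 0.318 points (exact permutation p = 0.229).

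Window by window, none of the 14694 windows (0%) was called with CC correction (F test of a quasi-binomial model moderated with limma, at a Benjamini-Hochberg adjusted p under 0.05). At an unadjusted p under 0.05 there were 618 of 14694 windows. All windows of a library share its correction level and so are not independent, and a share of 0.05 is no benchmark for this count. Limma on unweighted levels called 0 (757 at unadjusted p under 0.05). A logistic model with the library's own CA level as offset called 8 (2675 at unadjusted p under 0.05). The median dispersion, the spread between libraries of a tissue relative to counting error, was 7.40. In simulated data of that dispersion the model recovered 1.49% of differences of 1 point and 27.3% of those of 2 points. Simulated noise was independent between windows, unlike an offset shared by all windows of a library, so these rates need not hold here. The absence of calls therefore says little about differences of this size. The 4 hippocampus libraries lay above the 4 hypothalamus libraries in 274 windows (1.86%) and below them in 35 (0.238%). Without hippocampus 3 and 4, which stand apart after this correction, 116 of the 14694 windows were called, 114 higher in hypothalamus and 2 in hippocampus.

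With mitochondrial correction the median dispersion was 2.06, and 585 windows were called (3.98% of 14694). The level was higher in hypothalamus in 498 of them (3.39% of windows tested) and in hippocampus in 87 (0.592%). Their median differences were 1.26 and -0.944 points, against 0.136 points over all windows, of which 63.0% were higher in hypothalamus. The tissues did not overlap in 430 of the 498 and 59 of the 87, and over all windows hypothalamus lay wholly above hippocampus in 1246 (8.48%) and wholly below it in 273 (1.86%).

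The 585 calls rest on a correction chosen after the data were seen and on shared dispersion. The model takes each library's correction level as known. Its p-values therefore leave out any error in that level, which would shift all windows of a library together. All counts that follow are out of 14694 windows tested. With the dispersion of each window alone 0 were called (1912 at unadjusted p under 0.05) and limma on unweighted levels called 66. The count was 208 without hippocampus 2, 364 without hippocampus 4, 280 without hypothalamus 1, 377 without hypothalamus 3, 389 without hypothalamus 4 and 289 without both hippocampus 3 and 4, of which 268 were among the 585 with the same sign. In the 4 libraries where both corrections nearly coincide, hippocampus 1 and 2 and hypothalamus 2 and 3, 9 windows were called, 4 higher in hypothalamus and 5 in hippocampus. With CC correction the same 4 libraries gave 33 calls, 11 higher in hypothalamus and 22 in hippocampus. The other 4 libraries gave 339 calls with mitochondrial correction, 321 higher in hypothalamus and 18 in hippocampus, but 6035 with CC correction, 71 higher in hypothalamus and 5964 in hippocampus. These are comparisons of 2 against 2 libraries. With mitochondrial correction the level difference was 0.151 points in the first 4 libraries and 0.205 points in the other 4. With CC correction it was 0.0860 and -0.755 points.

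**Figure D5:**
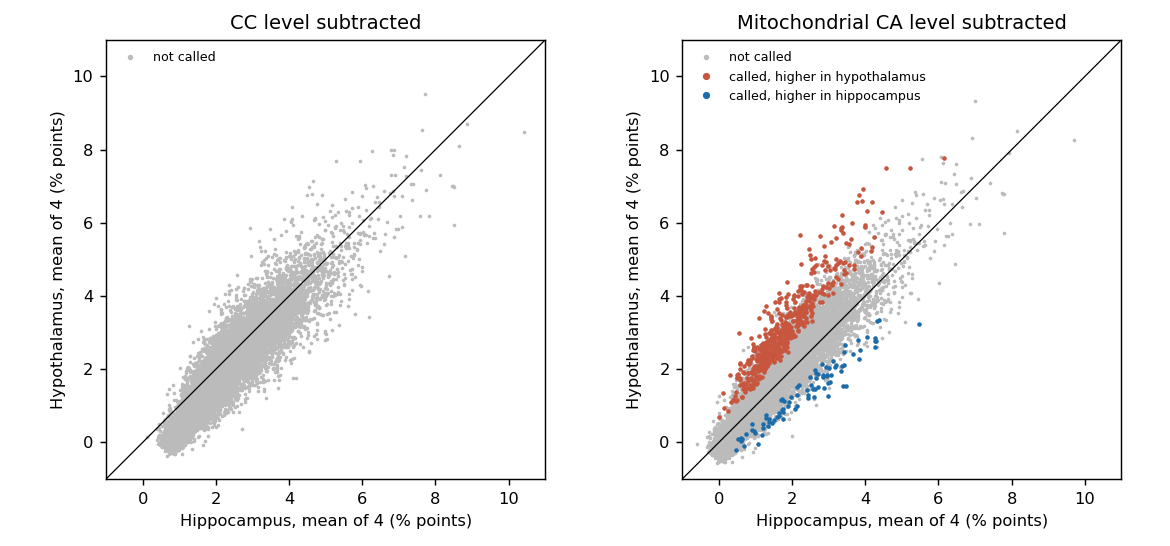
Mean CA level of each window in hippocampus (horizontal) and hypothalamus (vertical), in percentage points, with the CC level (left) or the mitochondrial CA level (right) subtracted; the line marks equal levels. On the left no window is called and the cloud lies mostly below the line; on the right 498 windows are called above it (red) and 87 below it (blue).

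Among called windows without overlap, those of largest difference are given with mitochondria-corrected levels, standard errors from the 2 SDs, and adjusted p of the same model. On chromosome 4 at 195000001 to 195100000 (35 positions, 775 to 2718 calls per library) the level was 2.93, 2.01, 1.24 and 2.72 points in hippocampus and 7.31, 4.90, 5.21 and 5.21 points in hypothalamus. Hypothalamus was higher by 3.43 points on average (standard error 0.675, limma-moderated model, adjusted p = 0.000207). The lack of overlap was a condition of the choice. CG methylation of the window was 63.7% in hippocampus and 90.5% in hypothalamus, over 19 positions.

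On chromosome 5 at 13700001 to 13800000 (40 positions) the levels were 4.11, 3.62, 3.80 and 4.18 points in hippocampus and 6.21, 6.70, 8.11 and 6.69 points in hypothalamus, a difference of 3.0 points (standard error 0.431, Benjamini-Hochberg adjusted p = 0.000296). Here CG methylation was 39.1% and 39.9%, nearly the same. On chromosome 1 at 216400001 to 216500000 (78 positions) the difference was 2.95 points (standard error 0.561, Benjamini-Hochberg adjusted p = 0.000327), with CG at 64.6% in hippocampus and 80.9% in hypothalamus. It holds 7 positions at a mean level of 20% or more, and without them its fitted difference was 1.75 points, against 2.63 with them. In the windows on chromosomes 4 and 1, then, CG and CA were both higher in hypothalamus.

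Toward hippocampus, the window on chromosome 14 at 90100001 to 90200000 (24 positions) had 3.51, 4.06, 3.35 and 2.62 points in hippocampus and 1.81, 1.39, 1.41 and 1.57 points in hypothalamus, a difference of -1.84 points (standard error 0.312, Benjamini-Hochberg adjusted p = 0.00645). The window on chromosome 10 at 74600001 to 74700000 (69 positions) differed by -1.70 points (adjusted p = 0.00162). The window on chromosome 17 at 53400001 to 53500000 (29 positions) differed by -1.55 points (adjusted p = 0.0345). In all 3 the hippocampus libraries lay above those of hypothalamus, which the choice of windows without overlap required.

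With CC correction the same 6 windows had an adjusted p of 0.930 and kept their directions. In the 4 libraries of lower CC level, 2 against 2, none of the 6 was called, with fitted differences of 2.52, 3.14, 2.33, -2.38, -1.38 and -1.68 points in the order above against 3.42, 2.78, 2.63, -1.96, -1.51 and -1.56 points in all 8. The chromosome 14 window had an adjusted p of 0.0600 without hippocampus 2 (fitted difference -1.70 points), 0.222 within replicates 1 and 4 only (-1.44), 0.115 in the libraries of lower CC level (-2.38) and 0.370 in those of higher CC level (-1.22). The chromosome 17 window had 0.0786 to 0.157 without hippocampus 1, hippocampus 4, hypothalamus 2 or hypothalamus 4, 0.137 without both hippocampus 3 and 4, 0.117 with limma on unweighted levels, and 0.310 and 0.235 in the libraries of lower and higher CC level.

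Differences in CA and CG between the tissues leaned the same way. Across 13719 windows the Spearman correlation of the mitochondria-corrected CA difference with the CG difference was 0.354, a description, as both come from the same libraries and reads. CG was higher in hypothalamus in 432 of 478 called windows with higher CA there (90.4%) and in 25 of 83 with lower CA (30.1%), against 59.6% of all windows. The median CG difference was 4.42 points in the first set, -1.11 points in the second and 0.541 points over all windows.

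CT sites, which share reads but no cytosine with CA, were read at the same windows with their own mitochondrial correction. CT was higher in hypothalamus in 447 of 484 windows called higher for CA (92.4%) and in 9 of 83 called lower (10.8%), against 63.8% of all 13916 windows with enough CT sites. Median CT differences were 0.324, -0.211 and 0.0765 points. For CC the shares were 18.2%, 7.23% and 13.5%, and the medians -0.113, -0.163 and -0.146 points.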

How the data were processed

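Per the submitters' processing notes, reads were handled with Bowtie and build rn5; no source used here gives versions, the methylation caller or duplicate handling. For each listed cytosine the authors deposited the count of methylated calls and of all calls, and the fraction, which is their ratio and was not used. Every listed position has at least 10 calls, so shallower ones are not analysed here; the files held 178178404 to 625653602 calls per library. The 23 mitochondrial positions held 106146 to 176000 calls.

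Window calls were modelled with a quasi-binomial identity-link model with the correction level as offset and tissue as the only term. Dispersion was moderated by limma 3.58.1 (R 4.3.3) with a floor of 1, an F test was used, and the model was tried on simulated data. There, 0%, 1.49% and 27.3% of planted differences of 0.5, 1 and 2 points were recovered with CC correction. With mitochondrial correction 7.46%, 34.3% and 78.8% were recovered. The simulation gave all windows the median dispersion and drew noise independently for each window and library. It planted only rises in hypothalamus, in 200 windows. Its rates need not hold in the real data. Single values were compared by exact permutation. Members, rules and tests were chosen with earlier results of these data known; mitochondrial and low-CG corrections were added later. Named windows are, with 100 or more positions, the 5 highest and 3 lowest, and the 3 largest called differences in each direction without overlap. As CC correction called none, that last rule was applied with mitochondrial correction. Classes in the comparison of CG positions were under 20%, 30% to 70% and over 80%, with 20 or more calls. No rn5 annotation was used, so no gene is named. Wilson intervals cover counting error only. The replicate numbers pair replicates 1 and 4 but not 2 and 3.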

Additional observations from a re-analysis of the deposited data

Results flagged for a closer look

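In the window at 195000001 on chromosome 4, hypothalamus 1 had a mitochondria-corrected level of 7.31 points and the other 3 hypothalamus libraries 4.90 to 5.21 points, a gap that is large for a group of 4. It was 1 of 42 groups of 4 values examined, where about 2.1 would stand out by chance.

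Chromosome X, which no comparison used, also carried CA methylation. Over its 15090 shared positions the mitochondria-corrected level was 1.11 points on average and 0.918 to 1.37 points by library, below the level of the windows of chromosomes 1 to 20 in all 8 libraries (1.42 to 1.97 points).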

How the results depend on the processing

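The tissue differences in spread and in CA to CG correlation and the within-minus-between correlation kept their direction in the alternatives run, but their size moved. None passed after adjustment, which a lone comparison at the lowest possible p could not do. The spread difference was 0.275 to 0.914 points, lowest and highest in the libraries of lower and higher CC level, and 0.318 thinned to 10 calls per position. The CA to CG difference was 0.000525 (50 kb windows) to 0.0474 (thinned), and the within-minus-between value 0.0169 (without both hippocampus 3 and 4) to 0.0589 (without strongly methylated positions). The level and the median window difference reversed to 0.0860 and 0.117 points in the 4 libraries of lower CC level, 0.178 and 0.193 with mitochondrial correction, 0.357 and 0.372 with the CA level of windows under 5% CG subtracted, and 0.320 and 0.351 without both hippocampus 3 and 4. Without 1 library they ranged from -0.604 to -0.0820 and from -0.595 to -0.0624. With mitochondrial correction the level difference was 0.0982 to 0.244 without 1 library, 0.101 without both hippocampus 3 and 4 and 0.0395 in replicates 1 and 4 only. The CAC difference could not pass in designs of 4 values or fewer: it was 2.18 and 2.37 points in the libraries of lower and higher CC level, 2.28 with a replicate block and 2.42 when the replicate block was limited to replicates 1 and 4.

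Against 0 windows called with CC correction (0 to 0 without 1 library), 1 was called with each window's own CC level, 1 in 50 kb windows, 33 and 6035 in the libraries of lower and higher CC level (5964 of the 6035 higher in hippocampus), 1 with the replicate block, 585 with mitochondrial correction, 1176 with the low-CG correction, 116 without both hippocampus 3 and 4 and 8 with the logistic model. Against 585, the count was 208 to 845 without 1 library (208 without hippocampus 2, 364 without hippocampus 4, and 280, 377 and 389 without hypothalamus 1, 3 and 4), 289 without both hippocampus 3 and 4, 9 and 339 in the libraries of lower and higher CC level, 66 with limma and 0 with unmoderated dispersion. With the replicate block it was 842, 723 higher in hypothalamus and 119 in hippocampus. In replicates 1 and 4 only, with 1 residual degree of freedom, it was 457, 281 higher in hypothalamus and 176 in hippocampus. Of these 457, 249 were among the 585 with the same sign. Same-numbered deviations correlated at 0.157, 0.0385, 0.0238 and 0.0571 for replicates 1 to 4. Blocks give no within-minus-between value.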
